A study of Ovis aries with 40 samples.

Results

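Genes for splicing factors and heterogeneous nuclear ribonucleoproteins (hnRNPs) were followed in the longissimus dorsi, the long muscle of the back, of 40 Poll Dorset sheep. The members were all genes whose symbol begins with HNRNP, SRSF, SF3A, SF3B, U2AF, PRPF or LSM. They were taken by symbol alone, but the symbols were chosen with earlier results of these data known. The array held 57 such genes among 9155 genes with a symbol of their own, and 56 of the 57 were among the 6360 genes counted as detected, that is with a mean signal over the 40 animals of at least 61.8, the median of all probe sets that are not controls. PRPF38A was the only member under this limit. By name the members comprised 16 hnRNP genes, 9 SR protein genes (SRSF), 11 genes of the U2 particle and its auxiliary factor (SF3A, SF3B and U2AF), 10 PRPF genes and 11 LSM genes.

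Introns are cut out of new transcripts by the spliceosome, which is built from small nuclear RNAs and many proteins. The hnRNP proteins coat the transcript and often hold back the use of nearby exons, whereas SR proteins bind exons and favour their use. The SF3A and SF3B proteins hold the U2 particle on the branch point, U2AF marks the end of the intron, most PRPF proteins belong to the particle that brings the catalytic RNAs, and a ring of LSM proteins grips the tail of U6 RNA. Skeletal muscle is known for extensive alternative splicing of its contractile protein genes.

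The animals were progeny of 6 sires, about 78 weeks old, raised under industry conditions without any treatment. Sires 11, 2 and 7 had high, and sires 16, 17 and 5 low, estimated breeding values for eye muscle depth, a measure of muscling. There were 19 animals in the high group (8 from sire 11, 7 from sire 2 and 4 from sire 7) and 21 in the low group (8 from sire 16, 5 from sire 17 and 8 from sire 5). Each animal gave 1 array, a bovine Affymetrix array hybridised with sheep RNA, so signals depend on how well each probe matches the sheep transcript and levels of different genes were not compared. Whether that match differs between families was not tested. Because every sire belongs to 1 muscling group, 3 sires stand behind each side of the muscling comparison, and the groups differ in breeding value as a family property rather than in a measured muscle of the animal.

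Signals below are MAS5 intensities on a linear scale, and differences are on the log2 scale. The 40 arrays correlated with each other at r between 0.902 and 0.963 over the detected genes, and none stood apart. All 8 measured muscle fibre markers were detected, with a summed signal of 162639 to 225376 in the high and 160653 to 221821 in the low group. In whole muscle, fewer cells of a type and less RNA per cell cannot be told apart.

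Between the muscling groups, 7 of the 56 detected members differed, and all 7 were lower in high muscling. They were LSM8, LSM5 and LSM7, which belong to the U6 ring, the SR protein genes SRSF7 and SRSF9, and SF3B5 and SF3B6, small subunits of the SF3B complex. Over all detected genes 7.78% were called in either direction and 5.50% were lower in high muscling, against 12.5% of the members. The test was limma with sire as a random block and an adjusted p under 0.05 over all 6360 genes. No member was called higher in high muscling, and none was higher even at an unadjusted p under 0.05, where 16 members (28.6%) were lower against 14.5% of all detected genes. The median difference, high minus low, was -0.10 over the members and -0.04 over all detected genes, and 42 of the 56 members (75%) had a negative difference against 55.8% of all detected genes.

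**Figure D1:**
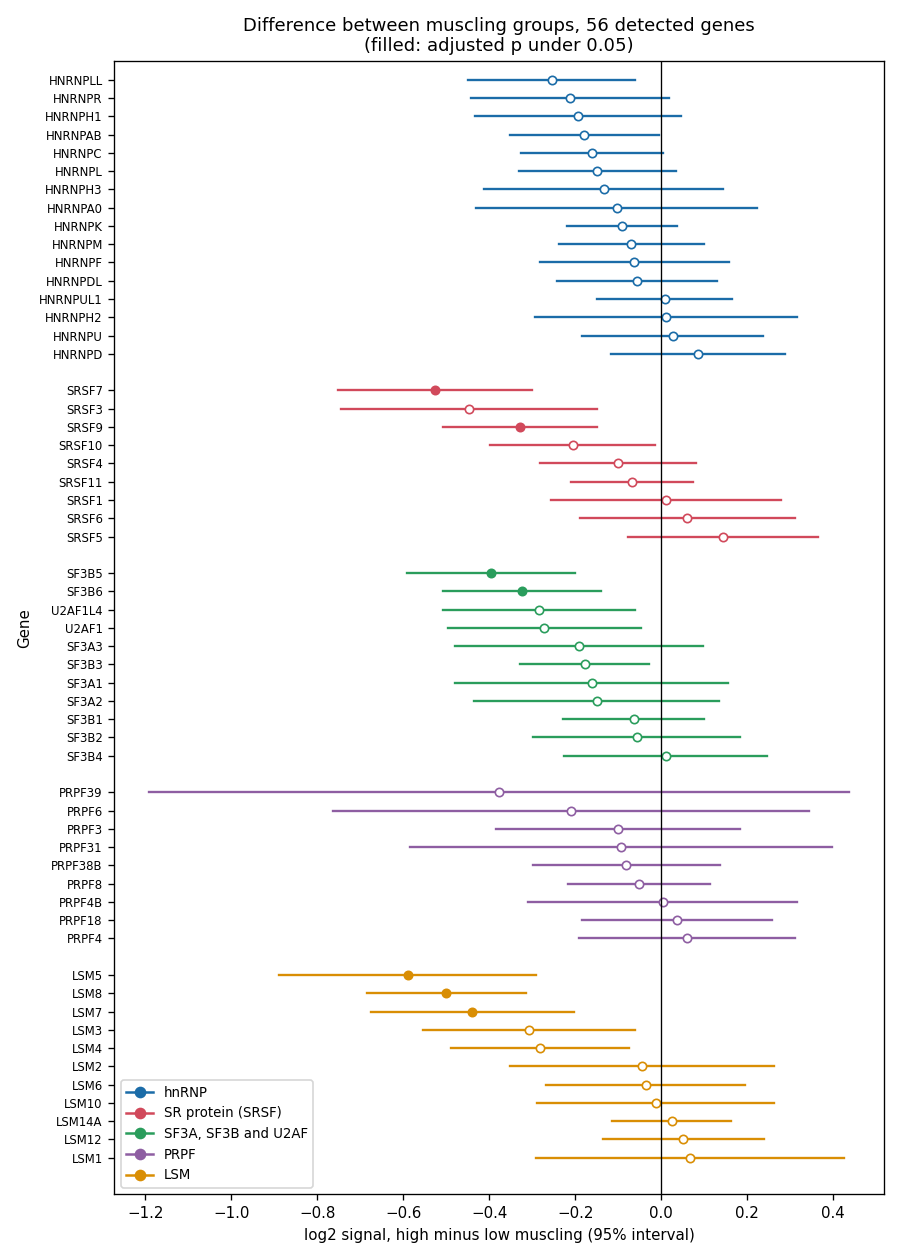
Difference in log2 signal between high and low muscling (horizontal axis, high minus low) for each of the 56 detected genes (vertical axis), grouped by family. Points are limma estimates, lines their 95% intervals, and filled points the 7 genes with an adjusted p under 0.05, which all lie between -0.59 and -0.32.

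Of the 11 LSM genes 3 were lower in high muscling. LSM8, the subunit found only in the nuclear U6 ring, had signals with a lowest, median and highest value of 804, 959 and 1221 in high muscling and of 1011, 1441 and 1863 in low muscling. The ranges overlapped, but all 19 high animals lay under the low group's median and all 21 low animals over the high group's median. The difference was -0.50 ± 0.09 (SE), 1.41-fold lower in high muscling (adjusted p = 0.00082). By family, LSM8 averaged 1034 ± 115 (SD, n = 8) in sire 11, 958 ± 117 (n = 7) in sire 2 and 948 ± 65.5 (n = 4) in sire 7. In the low group it averaged 1513 ± 256 (n = 8) in sire 16, 1139 ± 95.2 (n = 5) in sire 17 and 1505 ± 119 (n = 8) in sire 5. Sire 17 thus lay nearest to the high families.

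LSM5, shared by the U6 ring and the cytoplasmic ring that takes part in mRNA decay, ran over 231, 312 and 489.6 (lowest, median, highest) in high and over 295, 527 and 717 in low muscling. Its difference was -0.59 ± 0.15 (adjusted p = 0.0104), and the groups overlapped. This rests on the brighter probe set: a second one, just over the detection limit with a mean signal of 70.8, had a difference of 0.44 between the group means. With the mean over both probe sets the difference was -0.08 (adjusted p = 0.79) and LSM5 was not called. LSM7, also shared by both rings, ran over 562, 751 and 909 in high and over 634, 984 and 1341 in low muscling. Its difference was -0.44 ± 0.12 (adjusted p = 0.0152).

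The remaining subunits of these rings, among them LSM2, LSM3, LSM4 and LSM6, which both rings share as they do LSM5 and LSM7, did not pass. LSM4 had a difference of -0.28 (95% interval -0.49 to -0.07, adjusted p = 0.0838) and LSM3 of -0.31 (-0.55 to -0.06, adjusted p = 0.118), whereas LSM6 had -0.04 (-0.27 to 0.20) and LSM2 -0.04 (-0.35 to 0.26). LSM1, which takes the place of LSM8 in the cytoplasmic ring, had 0.07 (-0.29 to 0.43, adjusted p = 0.878). The genes with an Lsm domain outside both rings, LSM10 of the U7 particle, LSM12 and LSM14A, had differences between -0.01 and 0.05. The interval of LSM1 does not reach the estimate for LSM8, but the difference between the 2 genes was not tested.

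Among the SR proteins, SRSF7, a shuttling factor that also takes part in mRNA export, had signals of 1206, 1979.9 and 2567 in high and of 2172, 2658 and 3999 in low muscling. All 19 high animals lay under the low median and all 21 low animals over the high median, and the difference was -0.53 ± 0.11 (adjusted p = 0.00304). SRSF7 was lowest in sire 11, at 1732 ± 326 (n = 8), while sires 2 and 7 averaged 2077 ± 258 (n = 7) and 1939.8 ± 378 (n = 4) and the low families between 2557 ± 248 (sire 17, n = 5) and 2819 ± 524 (sire 16, n = 8). SRSF9 ran over 652, 861 and 1069 in high and over 738.5, 1119 and 1349.5 in low muscling, a difference of -0.33 ± 0.09 (adjusted p = 0.0172). SRSF3, the closest relative of SRSF7, missed the threshold with a difference of -0.45 ± 0.15 (adjusted p = 0.0535), although all 19 high animals lay under the low median. SRSF1, SRSF5 and SRSF6 had differences between 0.01 and 0.14 and did not pass.

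In the U2 group, SF3B5 and SF3B6 were lower in high muscling. SF3B5, one of the smallest subunits of SF3B, ran over 651, 802 and 979 in high and over 732, 1117 and 1359 in low muscling, with a difference of -0.40 ± 0.10 (adjusted p = 0.00858). SF3B6, the subunit that contacts the branch-point adenosine, ran over 1820.3, 2677 and 3336 in high and over 2393, 3274 and 3903 in low muscling, with a difference of -0.32 ± 0.09 (adjusted p = 0.0224). The large subunits SF3B1, SF3B2 and SF3B3 had differences between -0.18 and -0.06 and did not pass, nor did SF3B4 or the 3 SF3A genes. U2AF1, the small subunit that reads the end of the intron, and its relative U2AF1L4 had differences of -0.27 (95% interval -0.50 to -0.05) and -0.28 (-0.51 to -0.06) with an adjusted p of 0.129 and of 0.11.

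**Figure D2:**
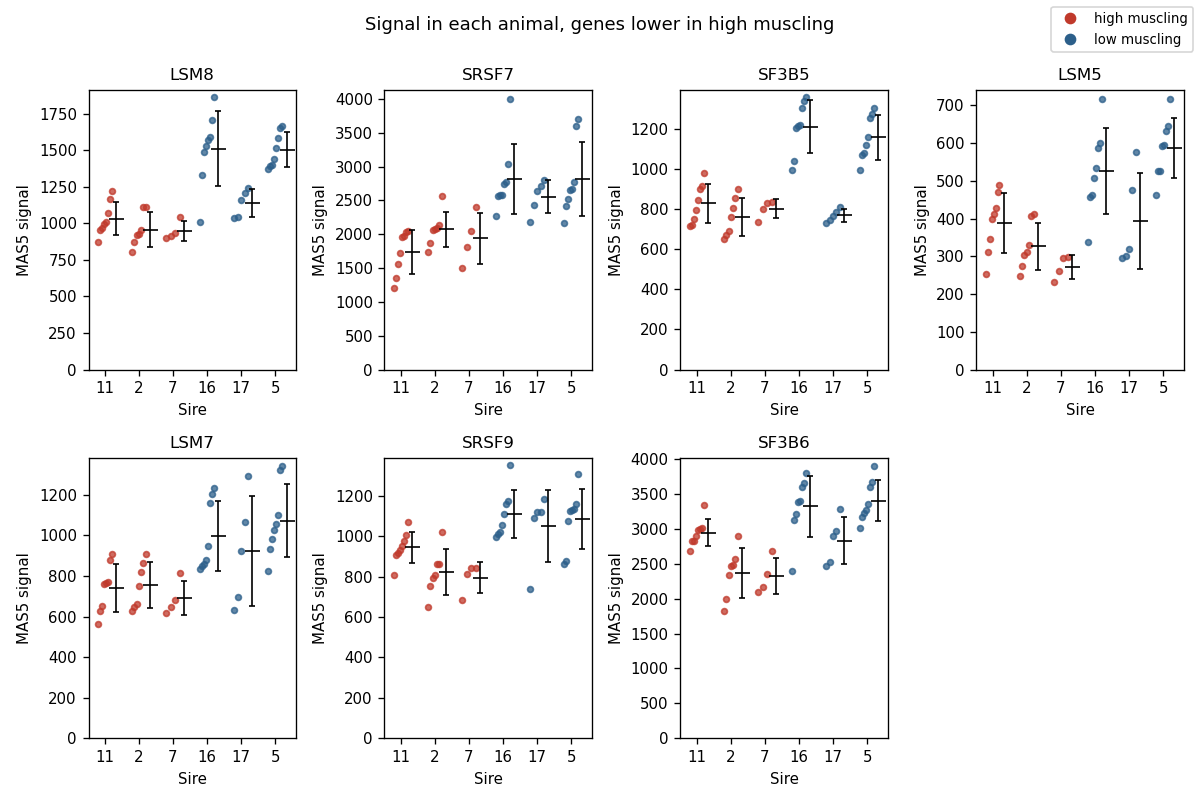
MAS5 signal (vertical axis) of each animal by sire (horizontal axis) for the 7 genes lower in high muscling, with high families in red and low families in blue. Points within a family are drawn in order of signal and bars give the mean and SD. The families of sires 16 and 5 hold the 2 highest means for each of the 7 genes.

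None of the 16 hnRNP genes and none of the 9 detected PRPF genes was called between the muscling groups by limma. At an unadjusted p under 0.05 there were 2 hnRNP genes and 0 PRPF genes. The hnRNP differences ran from -0.25 for HNRNPLL (adjusted p = 0.0972) to 0.09 for HNRNPD, with a median of -0.10 over the family, equal to that of the SR genes (-0.10) and smaller in size than that of the U2 group (-0.18). The PRPF median was -0.08 and the LSM median -0.04.

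Between single sires the muscling difference was less even. For 15 members (26.8%) all 3 family means of the log2 signal in the high group lay under all 3 of the low group, against 11.4% of all detected genes. No member had all 3 high means above, against 7.85% of all detected genes. Of the 7 called genes this held for LSM8, LSM7, SRSF7 and SRSF9, but not for LSM5, SF3B5 and SF3B6, where the mean log2 signal of sire 17 lay below that of 1 or more high families. For LSM5 this turned on the scale: sires 17 and 11 both averaged 8.57 on the log2 scale after rounding, with sire 17 the lower, whereas as a linear signal sire 17 had the higher mean (394 against 388). With the 6 family means as the samples, no gene of the 6360 was called, at 886 genes and 8 members with an unadjusted p under 0.05. The main fit used 1 sire correlation, 0.135, for all genes. For SF3B5, SF3B6, LSM5 and LSM8, which differed between sires by the F-test below, its SE and p may be too small. On the family means limma gave these genes an unadjusted p of 0.0815, 0.0573, 0.0162 and 0.0104. Families were then left out 1 at a time, and each called member was lower in high muscling. Without sire 11, 11 members were called (7.11% of all detected genes were called lower in this fit). There were 3 without sire 2 (3.08% of all lower) and 3 without sire 7 (3.00%). It gave 1 without sire 16 (0.314%), 11 without sire 17 (13.2%) and 0 without sire 5 (0.252%). The 11 members without sire 17 were 19.6% of the 56, and 19.2% of all genes were called there in either direction. LSM8 was called in 5 of these 6 fits (adjusted p from 3.67e-06 to 0.062), SRSF7 in 4, SF3B5 and LSM7 in 3, and LSM5, SRSF9 and SF3B6 in 2. Without a block for sire, 17 members (30.4%) were called, all lower in high muscling. Of all detected genes 16.6% were called lower in this fit and 24.9% in either direction.

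Other measures moved with the muscling groups. Of the 6 fibroblast markers, all detected, 4 were lower in high muscling, and their summed signal ran from 4745 to 11650.3 in the high and from 7376 to 21951 in the low group. Of the 4 smooth muscle markers 1 was lower in high muscling, and no marker of muscle fibres, fat, endothelium or leukocytes was called. Their summed signals, which for some types include markers under the detection limit, overlapped between the groups and were not tested. For endothelium they ran from 1444 to 2350 (median 1939) in high and from 1742 to 3053 (median 2496) in low muscling. The medians in high and low were 576 and 746 for leukocytes, 1013 and 1382 for fat, and 186406 and 171854 for muscle fibres. The spiked hybridisation controls averaged 11.12 ± 0.07 (SD, n = 19) on the log2 scale in high and 11.02 ± 0.09 (n = 21) in low muscling, and the log2 ratio of the 3' to the 5' GAPDH control, a measure of RNA integrity, 0.30 ± 0.09 and 0.23 ± 0.12. The part of the cell type markers in the result was not tested. With the spiked controls as a covariate 6 members were called, all lower, with HNRNPC in place of LSM5 and SF3B6. Of all detected genes 4.84% were called there in either direction and 3.40% lower. With the GAPDH ratio 8 were called, all lower (9.59% of all in either direction, 6.87% lower), the 7 genes and SRSF3.

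The families that share a muscling group were compared next. A moderated F-test of sires within the high and within the low group called 14 of the 56 members (25.0%), against 22.0% of all detected genes, so the members' share lay close to that of all genes. They were HNRNPD, HNRNPF, HNRNPM and HNRNPU, the SR gene SRSF1, SF3B4, SF3B5 and SF3B6, PRPF4, PRPF8 and PRPF18, and LSM3, LSM5 and LSM8. Of these 14, SF3B5, SF3B6, LSM5 and LSM8 were also called between the muscling groups. Without the family of sire 11, 3 members were called (LSM3, PRPF8 and SF3B5), or 5.36%, and the share of all detected genes fell as well, to 6.40%. Without sire 17, 10 members (17.9%) were called, against 13.3% of all. Differences between the 6 family means made up a median of 29.7% of the variance of a member over the 40 animals and 25.9% over all detected genes.

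**Figure D3:**
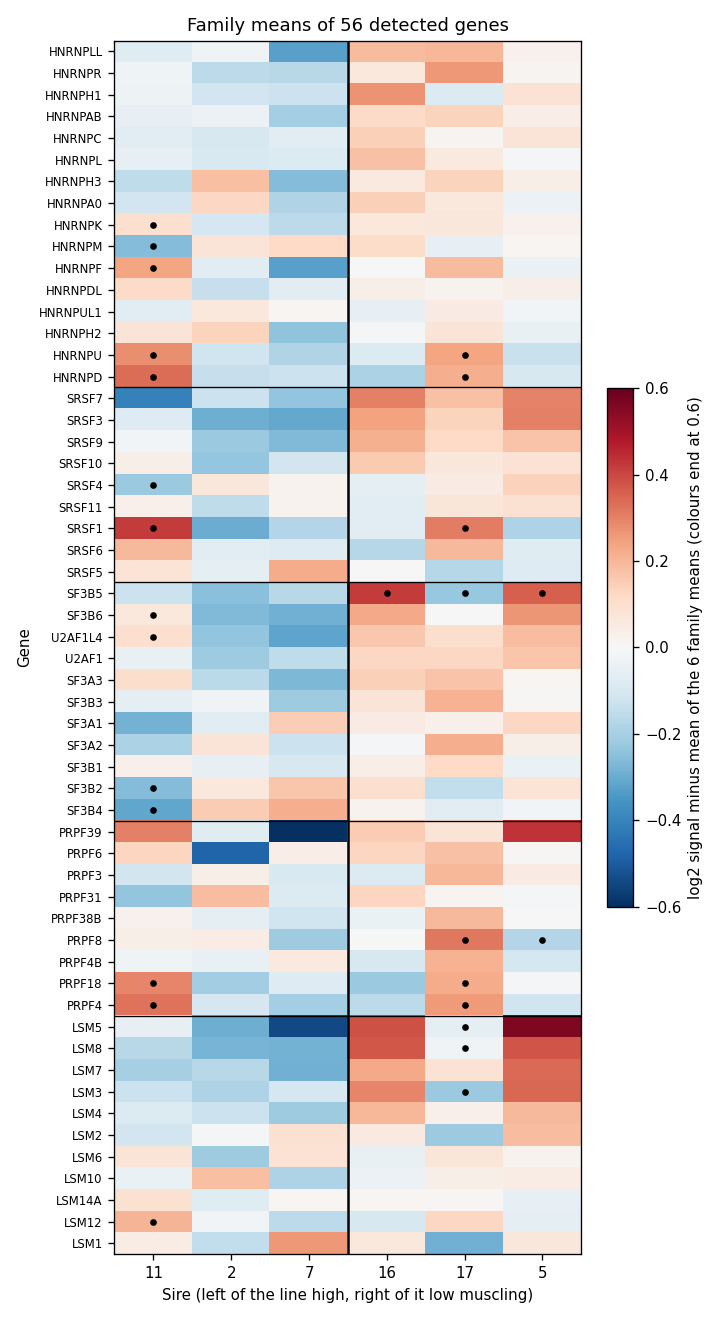
Mean log2 signal of each sire family (columns) for the 56 detected genes (rows), as the difference from the mean of the 6 family means. Black dots mark families that differed from the other 2 of their muscling group at an adjusted p under 0.05: 14 genes in sire 11, 10 in sire 17, 2 in sire 5, 1 in sire 16 and 0 in sires 2 and 7.

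The family of sire 11 stood out within high muscling. Against the mean of sires 2 and 7, 10 members were higher (7.75% of all detected genes were) and 4 were lower (11.8% of all), so the members lay above the background upward and below it downward. The 10 were HNRNPD, HNRNPF, HNRNPK, HNRNPU, SRSF1, SF3B6, U2AF1L4, PRPF4, PRPF18 and LSM12, and the 4 were HNRNPM, SRSF4, SF3B2 and SF3B4. The median difference over the members was 0.10 against -0.05 over all detected genes. With each array centred on its median signal the split was 14 higher and 2 lower. All detected genes shifted too under this scaling: 42.1% of the called genes were lower in sire 11 in place of 60.4%, and the median difference over all genes became 0.02.

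The family of sire 17 stood out within low muscling. Against the mean of sires 16 and 5, 6 members (10.7%) were higher and 4 (7.14%) were lower. Of all detected genes 4.37% were higher and 9.70% lower, so the members lay above the background upward and below it downward. The 6 were HNRNPD, HNRNPU, SRSF1, PRPF4, PRPF8 and PRPF18, and the 4 were LSM3, LSM5, LSM8 and SF3B5. By name those higher comprised 2 hnRNP, 1 SR and 3 PRPF genes, and those lower 3 LSM genes and 1 of the U2 group. With the mean over probe sets LSM5, PRPF8 and PRPF18 were not called in sire 17. In sire 5, SF3B5 was higher and PRPF8 lower (3.03% of all genes were called), and in sire 16 SF3B5 was higher (0.236% of all). No member was called in sire 2 (0.582% of all genes) or in sire 7 (0.204% of all) by limma, with 6 and 11 members at an unadjusted p under 0.05. The comparisons within a muscling group share animals.

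The comparisons of sires 11 and 17 share no animals, and 5 members were higher in both: HNRNPD, HNRNPU, SRSF1, PRPF4 and PRPF18. They made up 50% of the members higher in sire 11 and 83.3% of those higher in sire 17. Over all detected genes 136 (2.14%) were higher in both, 27.6% and 48.9% of the respective lists. With the mean over probe sets PRPF18 was called in neither family. No member was lower in both.

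**Figure D4:**
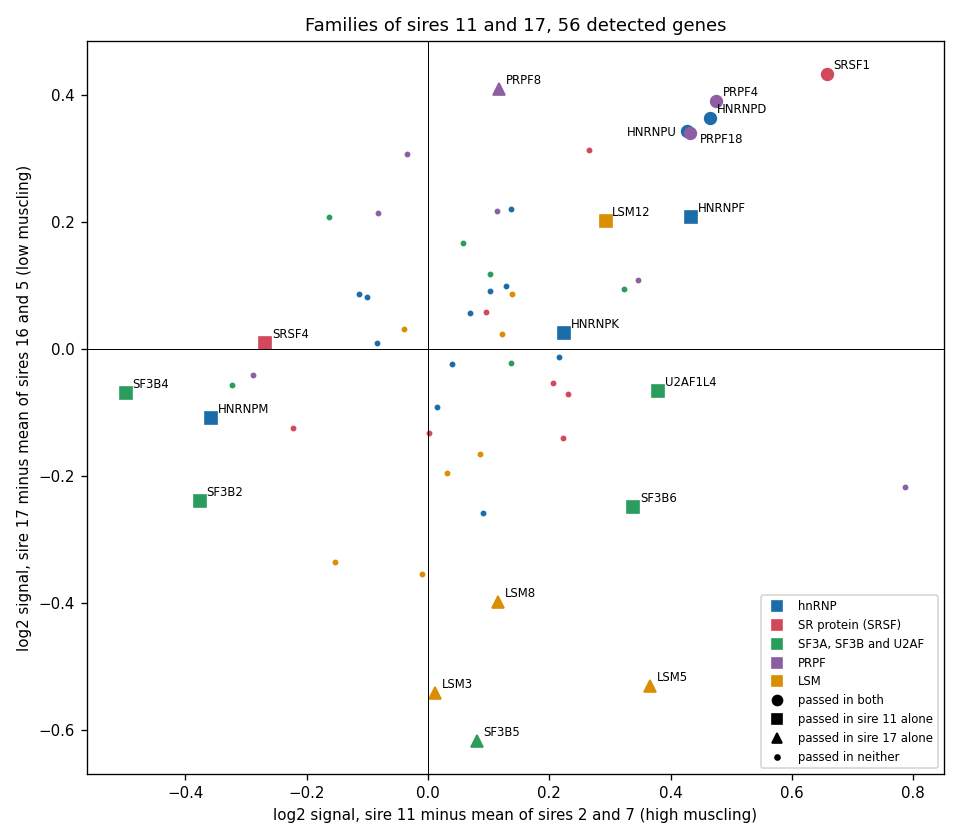
Difference in log2 signal of sire 11 from the mean of sires 2 and 7 (horizontal axis) against that of sire 17 from the mean of sires 16 and 5 (vertical axis), 1 point per detected gene, coloured by family and shaped by which comparison passed. SRSF1, HNRNPD, HNRNPU, PRPF4 and PRPF18 lie together at the upper right, whereas LSM3, LSM5, LSM8 and SF3B5 lie at the bottom, lower in sire 17 alone.

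SRSF1, the founding SR protein, averaged 1197 ± 177 (SD, n = 8) in sire 11, against 725 ± 79.8 (n = 7) in sire 2 and 801 ± 188 (n = 4) in sire 7. It averaged 1131 ± 313 (n = 5) in sire 17, against 850 ± 91.1 (n = 8) in sire 16 and 781 ± 68.0 (n = 8) in sire 5. The differences were 0.66 for sire 11 (adjusted p = 5.23e-05) and 0.43 for sire 17 (adjusted p = 0.0125). In sire 17 the animals ran from 771.5 to 1447, which overlapped the upper part of sire 16 (735 to 998) and of sire 5 (712 to 887). A second SRSF1 probe set had differences of 0.68 and 0.35 in the same direction, and the remaining one of 0.09 and 0.59.

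HNRNPD, also called AUF1, which binds AU-rich elements of short-lived mRNAs, ran from 2063 to 2273 in sire 11, from 1476 to 1679 in sire 2 and from 1208 to 1961 in sire 7. The 8 animals of sire 11 therefore lay over all 11 other animals of the high group, with a difference of 0.47 (adjusted p = 0.00014). In sire 17 it ran from 1588 to 2469, against 1282 to 1778 in sire 16 and 1485 to 1752.5 in sire 5, a difference of 0.36 (adjusted p = 0.00567) with overlap. HNRNPU, the large nuclear scaffold protein, averaged 3621 ± 424 in sire 11 and 3525 ± 519 in sire 17, and between 2649.7 ± 489 and 2809 ± 206 in the other families. Its differences were 0.43 (adjusted p = 0.00134) and 0.34 (adjusted p = 0.0197).

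PRPF4, a partner of PRPF3 on the U4/U6 particle, averaged 231 ± 15.4 in sire 11 and 225 ± 53.1 in sire 17, and between 162 ± 28.4 and 173 ± 20.7 elsewhere. PRPF18, which acts in the second step of splicing, averaged 359.5 ± 40.5 in sire 11 and 348 ± 70.8 in sire 17, and between 252 ± 22.3 and 292 ± 35.3 elsewhere. This rests on the brighter probe set of PRPF18. A second one, with a mean signal of 79.2, had differences of -0.06 in sire 11 and -0.21 in sire 17. With the mean over both probe sets PRPF18 was called in neither family, nor by the F-test. For PRPF4, and for PRPF18 on its brighter probe set, sires 11 and 17 held the highest family means. PRPF8, the protein at the centre of the catalytic core, followed another order: it averaged 1808.5 ± 140 in sire 17, with every animal at 1626 or more, against 1451 ± 158 in sire 16 and 1282 ± 88.3 in sire 5, where no animal passed 1412. The difference was 0.41 in sire 17 (adjusted p = 0.000245) and -0.33 in sire 5 (adjusted p = 0.00384), while sire 11 had 0.12 (adjusted p = 0.242). This rests on the brightest probe set of PRPF8. The others, both under the detection limit, had -0.14 and 0.13 in sire 17. With the mean over its probe sets PRPF8 was called in neither sire 17 nor sire 5, nor by the F-test.

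SF3B5 had the smallest p of the members between families (adjusted p = 3.67e-05 by the F-test). Its 5 animals from sire 17 ran from 732 to 810.2, under all animals of sire 16 (994 to 1359) and sire 5 (996 to 1301) and inside the range of 651 to 979 of the high group. Sire 17 differed from the other low families by -0.62 (adjusted p = 7e-06). HNRNPM, a regulator of alternative exons, went the other way from HNRNPD in sire 11: its 8 animals there ran from 1892 to 2205, under all animals of sires 2 and 7 (2255 to 2849), a difference of -0.36 (adjusted p = 0.00123).

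**Figure D5:**
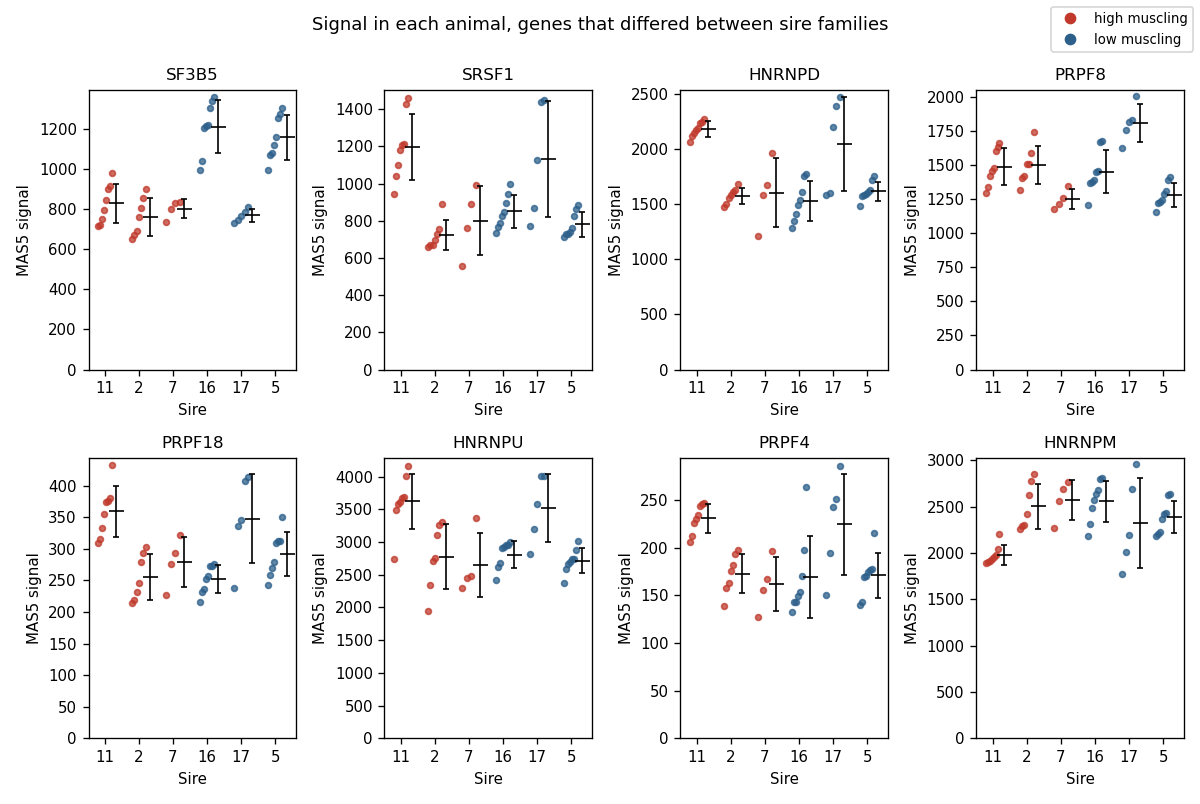
MAS5 signal (vertical axis) of each animal by sire (horizontal axis) for the 8 members with the smallest p between families, with high families in red and low families in blue. Points are in order of signal within a family and bars give the mean and SD. SRSF1, HNRNPD, PRPF18, HNRNPU and PRPF4 are highest in sires 11 and 17, SF3B5 is high in sires 16 and 5 alone, and HNRNPM is lowest in sire 11.

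The arrays of sire 11 differed in other measures too. Its log2 GAPDH 3' to 5' ratio averaged 0.37 ± 0.06 (n = 8), against 0.25 ± 0.10 (n = 7) in sire 2 and 0.27 ± 0.06 (n = 4) in sire 7, and between 0.21 and 0.26 in the low families. Within sire 17 the ratio spread most (SD 0.20, n = 5). It was 0.40 in progeny 71 and 85 and 0.28 in progeny 88, against 0.13 in progeny 39 and -0.06 in progeny 79. HNRNPD was 2469, 2390 and 2198 in progeny 71, 85 and 88, against 1588 and 1604 in progeny 39 and 79. For HNRNPU these were 3577, 4008 and 4018 against 3196 and 2825. A link between ratio and signal was not tested. The median log2 signal over the detected genes averaged 7.77 ± 0.02 in sire 11 and between 7.81 and 7.86 elsewhere. With the GAPDH ratio as a covariate 12 members were called in sire 11, 10 higher and 2 lower, and the share of all detected genes called went from 19.6% to 12.3%. In sire 17 the same covariate left 10 members called, beside 14.8% of all detected genes. In sire 11, 2 of the 6 fibroblast, 2 of the 4 smooth muscle, and 2 of the 8 muscle fibre markers were lower. In sire 17, 2 of the 6 fibroblast markers were lower and 1 of the 8 muscle fibre markers was higher. The part of these markers in the results was not tested.

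Further probe sets, 29 in all over 20 members, gave another reading of some genes, and 21 of them were over the detection limit. For SF3B1, the subunit that clamps the branch point, the probe set with the highest mean had a difference of 0.10 in sire 11, but the others had differences of 0.97, 1.02 and -0.04. HNRNPF had 0.43 in sire 11 on a probe set whose design may match several transcripts and -0.20 on another. With signals averaged over probe sets HNRNPF was called neither in sire 11 nor by the F-test. LSM5, called lower in sire 17 with -0.53, had 0.01 there on its second probe set. Averaged over both, LSM5 was called neither in sire 17 nor by the F-test. HNRNPK had 0.22 and 0.35, in the same direction. SRSF4, called lower in sire 11 with -0.27, had 0.40 on a second probe set with a mean signal of 119. With signals averaged over probe sets SRSF4 was not called in sire 11. With signals averaged over all probe sets of a gene, 6 members were called between the muscling groups, without LSM5 and SF3B6 and with SRSF3. The second probe set of SF3B6 had a mean signal of 30.5, under the detection limit, and a difference of -0.05 between the group means. With this average SF3B6 was also called neither in sire 11 nor by the F-test.

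Over the 40 animals the median SD of the log2 signal was 0.28 over the members and 0.38 over all detected genes, which include many of lower signal. HNRNPK, a multifunctional RNA and DNA binding protein, and LSM14A, a decay and storage factor, had the lowest SD, both 0.13, followed by SRSF11 at 0.15. PRPF39, of the U1 particle, had the highest at 0.95 and a mean signal of 86.5, close to the detection limit, with animals from 6.1 to 162.7. PRPF6 (0.64) and PRPF31 (0.55), both of the tri-snRNP, followed, with lowest animals at 16.3 and 54.7.

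Pairs of members rose and fell together only weakly. Across the same 40 arrays, the 1540 pairs of the 56 members had a median r (Pearson) of 0.07 and all pairs of detected genes one of 0.01. With the family means taken out it was 0.02 over the members. The hnRNP genes had the highest median of the families by name, 0.17 over 120 pairs and 0.14 with the family means taken out, and the LSM genes the lowest, 0.05 over 55 pairs. By its mean r with the other members SF3B6 (0.22), LSM5 (0.21) and SRSF9 (0.20) ranked highest, and SRSF5 (-0.11), SF3B4 (-0.08) and LSM2 (-0.06) lowest. These values describe the 40 animals and carry no test.

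Other genes of the splicing pathway, counted over lists of their own, gave few calls between the muscling groups. Of the spliceosomal RNA helicases 2 of 15 detected genes were lower in high muscling, DDX41 (-0.33, adjusted p = 0.0182) and DDX5 (-0.49, adjusted p = 0.0244), a coregulator of myogenic transcription as well. Of the exon junction and export genes 1 of 12 was lower, EIF4A3, the anchor of the exon junction complex (-0.36, adjusted p = 0.0193), and SARNP had -0.21 (adjusted p = 0.0598). No gene was called among 9 muscle splicing regulators, 9 genes of the PRP19 complex and related proteins, 25 RBM and RS-domain genes, 6 SR protein kinases, 12 genes of 3' end processing and 14 other U1, U2 and tri-snRNP genes. In these lists 2, 1, 5, 0, 0 and 2 genes had an unadjusted p under 0.05. The list medians lay between -0.16 (exon junction and export) and 0.05 (PRP19 complex and related).

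The genes with the smallest p in the lists without a call had the following differences. PTBP1, which represses muscle exons, had -0.37 (adjusted p = 0.0875) and RBFOX2, which promotes them, 0.43 (adjusted p = 0.0965). RBM39 had -0.18 and RBM25 0.40, CLK3 -0.13 and DYRK1A 0.21, CPSF6 0.36 and PAPOLA -0.21, PUF60 -0.21 and PPIH -0.23, and BUD31 -0.22 and CWC15 -0.15, with adjusted p between 0.106 and 0.589.

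Between families, by the F-test, 4 of 9 muscle splicing regulators were called, 4 of 6 SR protein kinases, 5 of 25 RBM and RS-domain genes, 3 of 12 genes of 3' end processing, 2 of 15 helicases, 2 of 14 other particle genes, 1 of 12 exon junction and export genes and 0 of 9 PRP19 complex and related genes, beside the 22.0% of all detected genes. Several were higher in both sire 11 and sire 17, as SRSF1 and HNRNPD were. RBFOX2 was higher in sire 11 (0.90, adjusted p = 1.66e-06) and in sire 17 (0.69, adjusted p = 0.000302), RBM24, a muscle splicing activator, by 0.62 and 0.58, and CPSF6, which steers the choice of poly(A) site, by 1.15 and 0.74. DYRK1A was higher by 0.29 and 0.73, RBM17 by 0.65 and 0.41, and ALYREF, an export adaptor, by 0.76 and 0.46, all with an adjusted p under 0.05. Others moved differently: SRPK3, a muscle-enriched SR protein kinase, was lower in sire 11 (-0.77, adjusted p = 0.00128) and had -0.09 in sire 17, and the helicase SNRNP200 was lower in sire 11 (-0.46) and higher in sire 7 (0.43, adjusted p = 0.0444). DDX17 was lower in both (-0.48 and -0.34), as was SUGP1 (-0.44 and -0.51). PUF60 was lower in sire 11 (-0.35), NXF1 likewise (-0.43), RBM28 was higher in sire 17 (0.46), and SYMPK, PPIE and BUD31 were called in neither family.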

How the data were processed

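Per the labels, RNA of each of the 40 animals was hybridised to an array of its own, and the authors deposited MAS5 signal intensities (version not given in the sources used here), which the values show to be linear with a trimmed mean of 200.1 on every array. Of 24128 probe sets, 13292 carried 1 gene symbol in the platform annotation. A gene was read from its brightest probe set on average, log2 was taken with no pseudocount, and genes averaging under 61.8 were left out. limma 3.58.1 (R 4.3.3) compared high with low muscling (sire as a random block, consensus correlation 0.135), sires within groups (moderated F-test, 4 degrees of freedom) and each sire with the other 2 of its group, with Benjamini-Hochberg adjustment over all detected genes. The code was tested on simulated data. Progeny of a sire share a father, and hybridisation batches were not given in the sources used here. Precision is limited by how many arrays there are and, between the muscling groups, by the 3 sires on each side.

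The members and lists were chosen with earlier results of these data known. Named were the genes called between muscling groups, the 8 members with the smallest p in the F-test, the 3 at each end of mean correlation and of SD, and 2 genes per test from each other list. Further members were named after their values were seen. Alternatives were quantile normalization, median centring, no filter, a limit of 123.5, a floor (20th percentile of each array), averaging over probe sets, 2 array-quality covariates, no block, family means as samples, and leaving out each family.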

Additional observations from a re-analysis of the deposited data

Results flagged for a closer look

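Within each sire family the 23 named members were searched for 1 animal far from the rest by Dixon's ratio. Over 138 families in all, 8 values passed. Chance marks about 5% of families, and 8 of 138 lies close to that share. PRPF39, PRPF6 and PRPF31 were among the 23 for their high SD over these same arrays, so the 5% need not hold for them. SRSF9 was 738.5 in progeny 71 of sire 17, under the 1089 to 1182 of the other 4 animals. SF3B6 was 2393 in progeny 65 of sire 16, under 3132 to 3802. HNRNPU was 2737 in progeny 51 of sire 11, under 3487 to 4169. SRSF5 was 1205 in progeny 31 of sire 16, over 839 to 994. PRPF39 was 21.2 in progeny 79 of sire 17, under 87.2 to 128.8. PRPF6 was 16.3 in progeny 46 of sire 2, under 123 to 278.5, and 269.6 in progeny 18 of sire 7, over 155 to 161. PRPF31 was 54.7 in progeny 94 of sire 5, under 178 to 261. The cause of these values was not tested.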

How the results depend on the processing

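Under quantile normalization, median centring, both other filters, the floor, the mean over probe sets and either covariate, between 6 and 8 members were called between the muscling groups, each lower in high muscling. Of all genes tested 4.84% to 9.59% were called in either direction and 3.40% to 6.87% lower. Without a block for sire the count was 17 (24.9% of all genes in either direction, 16.6% lower), and with family means as samples it was 0. Leaving out 1 family gave 0 to 11 members, with 0 without sire 5 and 1 without sire 16, where the number of genes called overall fell to 23 and 29. The F-test of families called 12 to 16 members under the other settings (13.7% to 30.5% of all genes tested), and 3 to 15 when 1 family was left out (6.40% to 21.8%). Over the 6 single-family comparisons 23 to 28 calls of members were made, against 27 in the main fit, with a member counted once for each comparison that called it. In sire 16 the count of 1 became 0 without a filter. In sire 5 the count of 2 (SF3B5 and PRPF8) became 1 with median centring and without a filter (PRPF8), 1 with the mean over probe sets (SRSF1), and 3 with the GAPDH ratio as a covariate, which added SRSF1. Among the other lists, the differences of CLK3 (-0.13) and CPSF6 (0.36) between the muscling groups turned sign without sire 11, and ran from -0.214 to 0.033 and from -0.0743 to 0.644 over the families left out. Of the called genes, LSM5 had -0.08 (adjusted p = 0.79) with the mean over probe sets. The median r over pairs of members ran from 0.05 to 0.09 under the other settings, and was 0.02 with family means taken out. The cause of these shifts was not tested. The labels give every animal its own progeny number, so no paired analysis was possible because the muscling groups share no replicate numbers.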
